A study of Mus musculus with 12 samples.

Results

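The *Pdgfa*, *Pdgfb*, *Pdgfc*, and *Pdgfd* genes encode the chains of the platelet-derived growth factor (PDGF) ligands, and *Pdgfra* and *Pdgfrb* encode the receptor tyrosine kinases PDGFRα and PDGFRβ that bind them. These 6 genes were taken by symbol from a table of 51490 genes, and all 6 passed the filter for low counts, as did 15037 genes in all. RNA-seq was performed on immortalized mouse embryonic palatal mesenchyme (iMEPM) cells derived from a male *Cdkn2a*-/- embryo, a genotype that all samples share. Cells carried a lentiviral scramble shRNA (scramble) or an shRNA against *Srsf3* (shSrsf3), a splicing factor, and were selected with puromycin and sorted for GFP, with 1 cell line per shRNA. After serum starvation, they were left unstimulated (-PDGF-AA) or given 10 ng/mL rat PDGF-AA for 1 hr (+PDGF-AA), with 3 replicates in each of the 4 groups. With a single line per shRNA, an effect of *Srsf3* knockdown and a difference between the lines cannot be told apart.

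PDGF chains form disulfide-linked dimers. The A and B chains are cut inside the cell by proprotein convertases such as furin, while the C and D chains are secreted with a CUB domain that extracellular proteases remove. PDGFRα binds the A, B, and C chains and PDGFRβ binds the B and D chains, and both receptors signal through PI3K, phospholipase Cγ, Src kinases, and the Ras adaptors. In the embryonic face, the A and C ligands are known largely from the epithelium and PDGFRα from the mesenchyme beneath it, and loss of PDGFRα signaling leads to facial clefting.

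Total counts ranged from 30958870 to 76123207 read pairs per sample, and the shSrsf3 +PDGF-AA libraries, at 30958870 to 37334636, included the shallowest. The targeted gene was lower where the labels said so: *Srsf3* was at 199 to 212 CPM (counts scaled to library size) in scramble -PDGF-AA samples, 161 to 164 CPM in shSrsf3 -PDGF-AA samples, 215 to 231 CPM in scramble +PDGF-AA samples, and 161 to 169.5 CPM in shSrsf3 +PDGF-AA samples. The log2 fold change was -0.34 without and -0.43 with ligand (edgeR adjusted p = 7.95e-06 and 9.54e-07). Of 9 immediate early genes that report growth factor signaling, 8 rose with PDGF-AA in scramble cells at an edgeR adjusted p of at most 0.05. In shSrsf3 cells, 7 rose and 1, *Fos*, fell. Of all genes, 4.04% and 0.565% passed this threshold in the 2 cell lines. The list was chosen with earlier results of these data known, and its 2 largest changes in scramble cells are given. *Egr3*, a transcription factor, went from 12.5 ± 1.44 to 66.2 ± 8.95 CPM (SD, n = 3) in scramble cells, and *Arc*, a cytoskeletal protein, from 12.8 ± 2.70 to 35.0 ± 2.77 CPM. Of 11 palate mesenchyme markers, 9 passed the filter for low counts, while *Meox2* did not and *Tbx22* had no count in any sample. The 3 libraries with the lowest Salmon mapping rate in the study's methods were all scramble (-PDGF-AA replicates 1 and 2, and +PDGF-AA replicate 2). Values without them are given for some of the results below.

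The bases upstream of the start sites are shown for *Pdgfra* and *Pdgfc*, which were lower in shSrsf3 samples, and for *Pdgfa* and *Pdgfd*, which differed less. RefSeq promoter entries (GRCm38.p6) matched 4 of the 6 genes, and *Pdgfb* and *Pdgfrb* are named only. Each line gives the 250 bases before a start site, read 5′ to 3′ on the gene's strand, in lower case, with matches to a searched motif in capitals. *Pdgfa* has 2 entries.
Pdgfra, chr5:75152001-75152250, plus strand: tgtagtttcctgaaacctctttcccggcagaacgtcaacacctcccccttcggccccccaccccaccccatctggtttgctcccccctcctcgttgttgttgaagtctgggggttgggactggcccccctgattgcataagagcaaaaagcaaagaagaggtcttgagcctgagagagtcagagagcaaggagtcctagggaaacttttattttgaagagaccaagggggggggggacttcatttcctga
Pdgfc, chr3:81036166-81036415, plus strand: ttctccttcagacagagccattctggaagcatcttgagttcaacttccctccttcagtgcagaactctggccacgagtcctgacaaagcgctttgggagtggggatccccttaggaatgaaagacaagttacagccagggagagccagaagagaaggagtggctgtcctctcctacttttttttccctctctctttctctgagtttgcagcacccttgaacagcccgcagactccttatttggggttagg
Pdgfa, chr5:138994282-138994531, minus strand: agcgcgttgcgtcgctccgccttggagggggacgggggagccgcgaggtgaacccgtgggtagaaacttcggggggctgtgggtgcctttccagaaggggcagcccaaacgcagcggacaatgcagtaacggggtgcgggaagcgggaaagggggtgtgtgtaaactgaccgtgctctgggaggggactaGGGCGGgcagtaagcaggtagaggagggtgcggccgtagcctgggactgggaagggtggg
Pdgfa, chr5:138994945-138995194, minus strand: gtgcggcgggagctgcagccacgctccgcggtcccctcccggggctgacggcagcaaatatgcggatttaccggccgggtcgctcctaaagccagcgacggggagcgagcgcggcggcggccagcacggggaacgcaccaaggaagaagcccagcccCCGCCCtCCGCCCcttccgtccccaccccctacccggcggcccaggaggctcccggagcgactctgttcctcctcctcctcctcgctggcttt
Pdgfd, chr9:6168236-6168485, plus strand: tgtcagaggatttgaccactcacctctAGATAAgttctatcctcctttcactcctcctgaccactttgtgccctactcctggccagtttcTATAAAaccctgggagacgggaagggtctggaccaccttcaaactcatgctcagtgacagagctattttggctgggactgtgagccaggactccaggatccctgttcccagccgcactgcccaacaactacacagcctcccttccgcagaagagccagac

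The motifs searched on both strands were the GC box (GGGCGG), the CCAAT box (CCAAT), the TATA box (TATAAA), the AP-1 site (TGANTCA), the cAMP response element (TGACGTCA), the E box (CACGTG), the GATA site (AGATAA or TGATAA), and the EGR site by name. Counted from the start site, GC boxes began at -60 in the first *Pdgfa* entry and at -93 and -86, on the opposite strand, in the second, and 33.0% of 32536 promoters of the same length hold one. The *Pdgfd* entry held a TATA box at -160, found in 12.3% of promoters, and a GATA site at -223, found in 16.5%. No motif of the 8 was in the *Pdgfra* or *Pdgfc* entry, and the matches shown do not overlap each other. The *Pdgfa* entries were rich in G and C (66.4% and 72.4%), against 54.4% for *Pdgfra*, 53.6% for *Pdgfd*, 50.8% for *Pdgfc*, and a median of 52.4% over all promoters.

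To compare the genes with each other, CPM were divided by the length of the canonical transcript in kb. *Pdgfrb* was the highest in every sample, at 63.1 to 71.3 CPM per kb, followed by *Pdgfa* (20.9 to 24.9), *Pdgfc* (12.1 to 20.2), *Pdgfra* (6.71 to 12.3), *Pdgfd* (1.82 to 2.56), and *Pdgfb* (0.806 to 2.68). Within each group, the samples of every gene lay apart from those of the next gene in this order, except for *Pdgfd* and *Pdgfb* in scramble cells. There, all *Pdgfb* samples lay above all *Pdgfd* samples without ligand (2.22 to 2.68 against 1.82 to 2.20 CPM per kb), and the genes overlapped with ligand. Without ligand, *Pdgfd* over *Pdgfb* was 0.859 ± 0.158 in scramble and 2.20 ± 0.192 in shSrsf3 samples (SD, n = 3), and with ligand it was 0.978 ± 0.0969 and 2.37 ± 0.841. With the summed length of all exons in place of the canonical transcript, the order of *Pdgfa* and *Pdgfc* turned in scramble cells, where *Pdgfa* was at 0.842 to 1.01 times *Pdgfc* without ligand and 0.859 to 0.948 times with ligand. On that scale, *Pdgfd* was at 0.392 to 0.561 and 0.522 to 0.629 times *Pdgfb* in scramble cells without and with ligand, whereas it lay above *Pdgfb* in every shSrsf3 -PDGF-AA sample and at 0.835 to 1.78 times *Pdgfb* in shSrsf3 +PDGF-AA samples, where the order then differed between samples. *Pdgfa* and *Pdgfc* together made up most ligand RNA per length, with shares, without ligand, of 49.7 ± 2.21% and 40.8 ± 1.95% in scramble and 57.1 ± 0.147% and 33.3 ± 0.496% in shSrsf3 samples. The summed ligand level was 47.1 ± 2.34 CPM per kb in scramble and 36.9 ± 0.376 in shSrsf3 -PDGF-AA samples, and 45.6 ± 0.869 and 38.3 ± 0.949 with ligand.

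**Figure D1:**
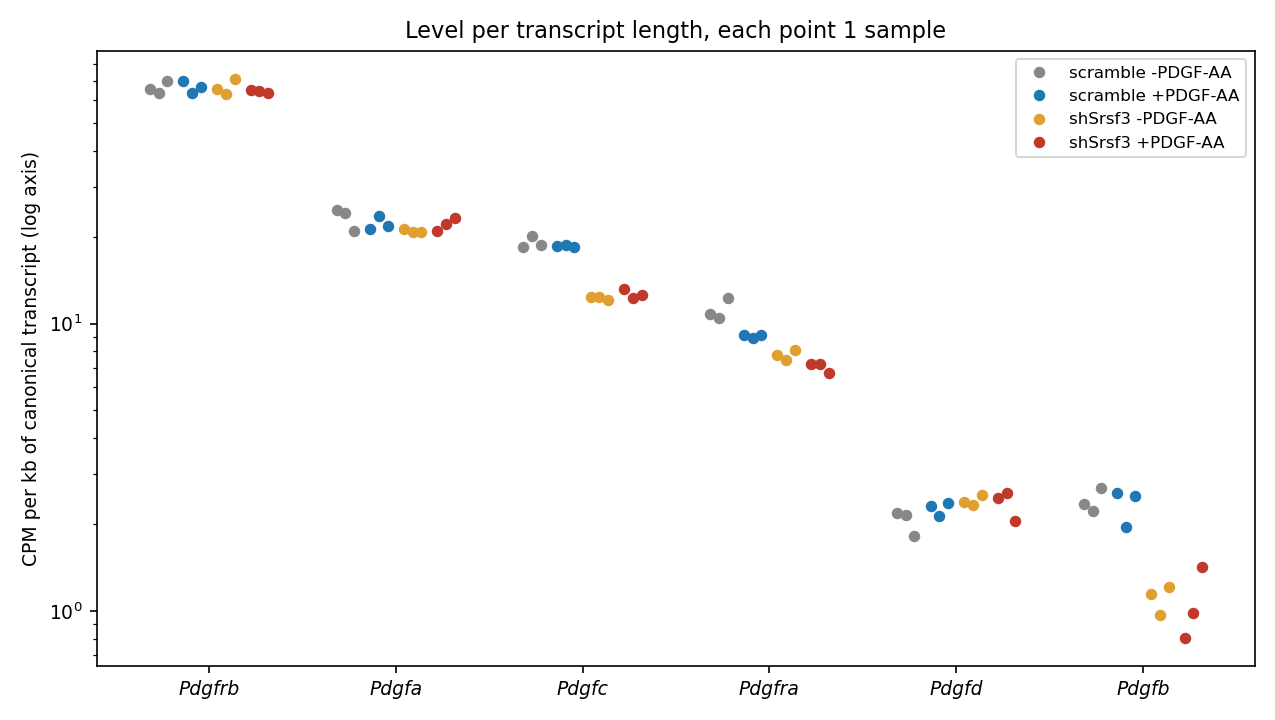
CPM per kb of canonical transcript (log axis) for the 6 genes in order of their mean, with 1 point per sample and 4 groups by color. *Pdgfrb* lies at 63.1 to 71.3, and *Pdgfd* and *Pdgfb* share the low end, where *Pdgfb* drops in shSrsf3 samples.

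To determine which PDGF genes differed upon *Srsf3* knockdown, scramble and shSrsf3 samples were compared in the same ligand condition. *Pdgfb*, *Pdgfc*, and *Pdgfra* fell in shSrsf3 cells in both conditions, and *Pdgfd* rose in the absence of ligand. Genes with an adjusted p of at most 0.05 in edgeR's quasi-likelihood test were called differentially expressed (DE). Of the 6 genes, 4 were DE without ligand, against 45.9% of all genes tested, with 3 lower (23.7% of all genes) and 1 higher (22.2%). With ligand, 3 were DE (41.0% of all genes), with 3 lower (20.7%) and 0 higher (20.3%), where 0 were higher at an unadjusted p under 0.05 or in DESeq2 and limma-voom as well. A 2-fold change was reached by 1 gene, *Pdgfb*, in each condition (5.75% and 5.42% of all genes). With ligand, it was at -0.96 on the log2 scale, short of 2-fold, without shSrsf3 +PDGF-AA replicate 1. The 95% interval of its ratio, 0.355 to 0.578 without and 0.350 to 0.586 with ligand, reaches past 2-fold into smaller changes in each condition. The shSrsf3 and scramble samples did not overlap for 4 of the 6 genes without ligand (53.3% of all genes) and 3 with ligand (52.6%). In bulk RNA, fewer cells that express a gene and less RNA per cell cannot be told apart. Of the 9 palate mesenchyme markers tested, 3 were called higher and 4 lower without ligand (22.2% and 23.7% of all genes). With ligand, 3 were called higher and 3 lower (20.3% and 20.7%). A 2-fold change was reached by 1 without and 2 with ligand. For PDGF-AA in scramble cells, 0 were called higher and 2 lower, against 4.04% of all genes called. Some markers of other cell types also differed between the cell lines. The 6 epithelial markers, of which 3 were tested, summed to 4.78 to 6.15 CPM in scramble and 2.91 to 4.15 CPM in shSrsf3 samples. Of these 3, *Cdh1* alone was called (-2.24 and -1.95), while *Trp63* was at -0.10 and -0.21 and *Epcam* at -0.22 and -0.44 (adjusted p of 0.355 or more in edgeR). The 6 neural and glial markers, of which 3 were tested and *Sox10* was at 0, summed to 29.1 to 32.4 CPM and 20.6 to 25.2 CPM, mostly from *Tubb3*. The 5 leukocyte markers summed to at most 1.68 CPM in any sample, with *Adgre1* and *Cd3e* at 0. The part of such cells in the results that follow was not tested.

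**Figure D2:**
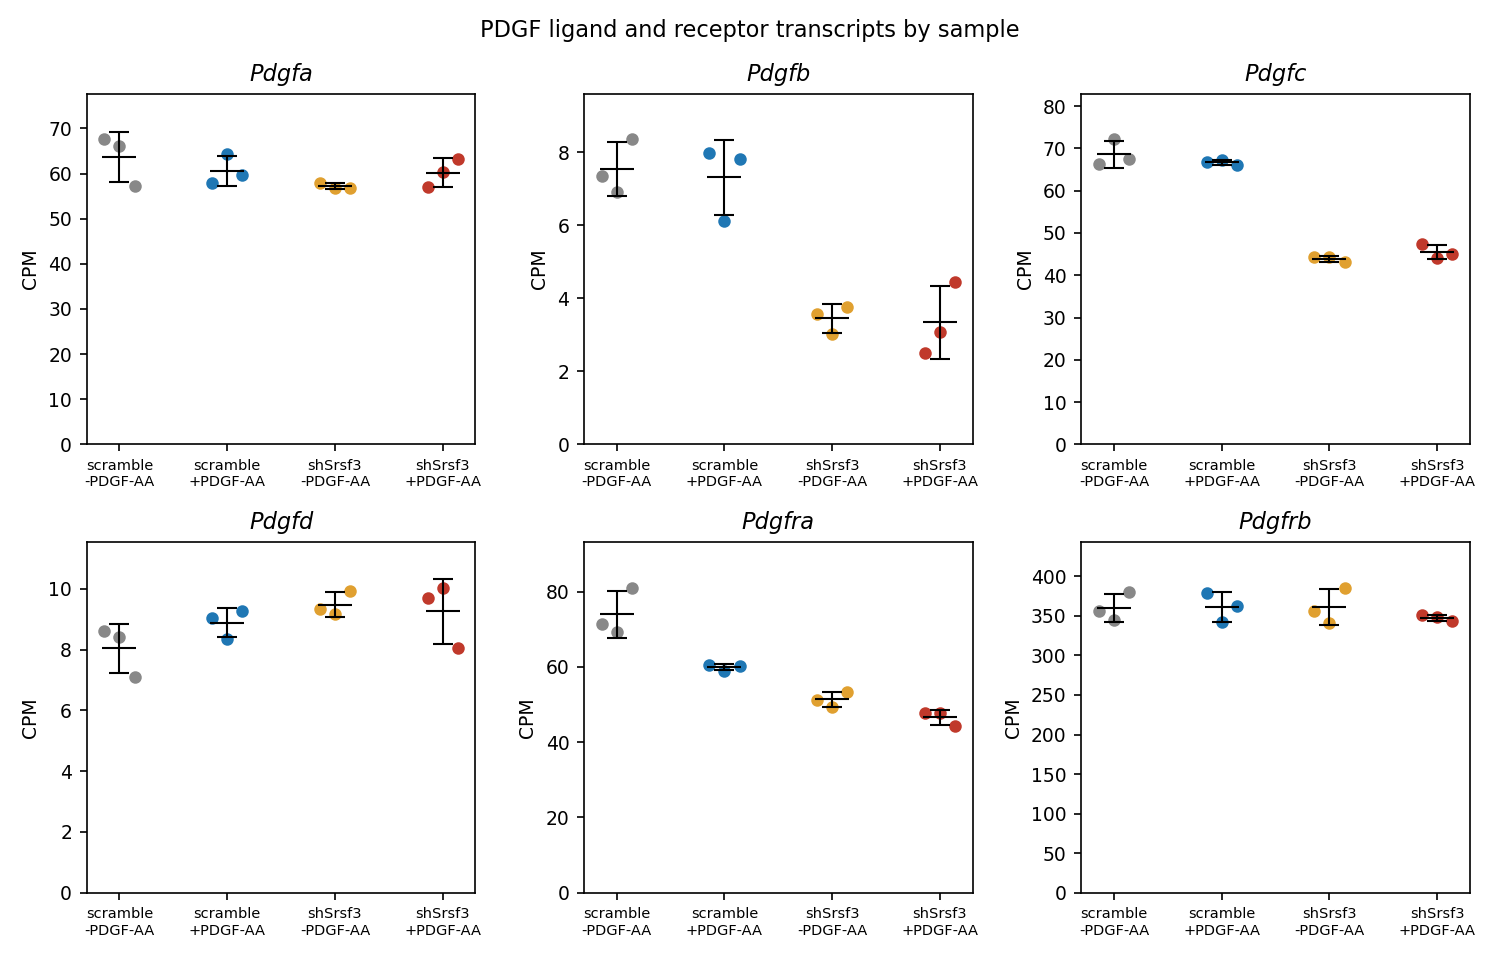
CPM of each gene by sample (points), with the group mean and SD (bars, n = 3), on linear axes from 0. *Pdgfb*, *Pdgfc*, and *Pdgfra* sit lower in both shSrsf3 groups, while *Pdgfrb* stays between 341 and 385 CPM in all 12 samples.

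*Pdgfb*, which encodes the chain that binds both receptors and is known for recruiting pericytes to blood vessels, lies on chromosome 15 (79880009 to 79899181, minus strand, GRCm39). Without ligand, it was at 7.35, 6.92, and 8.35 CPM in the scramble samples and 3.57, 3.01, and 3.76 CPM in the shSrsf3 samples. With ligand, it was at 7.99, 6.11, and 7.82 CPM in scramble and 2.51, 3.07, and 4.44 CPM in shSrsf3 samples. Every shSrsf3 sample lay below every scramble sample in both conditions. The log2 fold change was -1.14 ± 0.16 (SE) without ligand, with an adjusted p of 7.69e-05, and -1.14 ± 0.17 with ligand, with an adjusted p of 1.28e-04 (edgeR). These levels rest on 94 to 506 read pairs per sample, the fewest of the 6 genes. Endothelial cells are a known source of *Pdgfb*, and the summed level of 5 endothelial markers moved with it, at 30.2 to 34.3 CPM in scramble and 18.6 to 22.5 CPM in shSrsf3 samples. Nearly all of this sum was *Tek* (30.6 ± 1.46 CPM in scramble and 20.0 ± 0.421 CPM in shSrsf3 -PDGF-AA samples), whereas *Cldn5* was at 0 in all samples and *Pecam1* was at 0.499 ± 0.187 CPM or less in each group. *Cdh5*, a small part of the sum, was higher in shSrsf3 samples (log2 fold change 2.33 and 2.82). The part of such cells in the *Pdgfb* result was not tested.

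*Pdgfc*, which encodes a PDGFRα ligand required for palate formation in mice, lies on chromosome 3 (80943668 to 81121473, plus strand). Without ligand, it was at 66.2, 72.2, and 67.4 CPM in the scramble samples and 44.4, 44.3, and 43.1 CPM in the shSrsf3 samples. In the presence of ligand, it was at 66.9, 67.2, and 66.1 CPM in scramble and 47.4, 44.0, and 45.0 CPM in shSrsf3 samples. No shSrsf3 sample reached the lowest scramble sample in either condition. The log2 fold change was -0.64 ± 0.04 (SE) without and -0.55 ± 0.04 with ligand (edgeR adjusted p = 5.01e-08 and 2.48e-07), a change of -36.0% and -31.8%.

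*Pdgfa*, which encodes another PDGFRα ligand and the chain of the PDGF-AA added to the cells, lies on chromosome 5 (138961758 to 138983435, minus strand). Without ligand, it was at 67.6, 66.0, and 57.3 CPM in the scramble samples and 58.0, 56.8, and 56.8 CPM in the shSrsf3 samples, and the groups overlapped at scramble replicate 3. The log2 fold change of -0.15 ± 0.06 (SE) was not called (edgeR adjusted p = 0.0587). It was called without that replicate, at -0.21 (adjusted p = 0.00429), with upper quartile factors (-0.16, adjusted p = 0.0402), and with no filter on low counts (-0.15, adjusted p = 0.0181), and 5 of the 6 genes were called under each of the last 2 settings. Leaving out the 3 libraries of lowest mapping rate gave a log2 fold change of -0.01. That fit keeps replicate 3, the lowest, as the only scramble -PDGF-AA sample. In the presence of ligand, *Pdgfa* was at 58.0, 64.3, and 59.6 CPM in scramble and 56.9, 60.4, and 63.2 CPM in shSrsf3 samples, again overlapping, and the 95% interval of the difference ran from -9.55% to 8.88%. A long noncoding gene on the opposite strand, *6330403L08Rik*, overlaps *Pdgfa* and was at 8.92 to 13.5 CPM.

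*Pdgfd*, a ligand of PDGFRβ, lies on chromosome 9 (6168240 to 6379265, plus strand). Without ligand, it was at 8.60, 8.41, and 7.11 CPM in the scramble samples and 9.35, 9.16, and 9.93 CPM in the shSrsf3 samples, and the 2 groups did not overlap. The log2 fold change was 0.24 ± 0.09 (SE, edgeR adjusted p = 0.0431), close to the threshold. It was not called without scramble -PDGF-AA replicate 3 (0.16, adjusted p = 0.144), without shSrsf3 -PDGF-AA replicate 1, 2, or 3 (0.25, 0.26, and 0.21, adjusted p = 0.0815, 0.0629, and 0.111), without scramble +PDGF-AA replicate 1 or 3 (0.24 in both, adjusted p = 0.0529 and 0.0520), or with the replicate number as a block (0.24, adjusted p = 0.0518). Without the 3 libraries of lowest mapping rate, which leaves replicate 3 as the only scramble -PDGF-AA sample, it was at 0.40 (adjusted p = 0.00960). With ligand, *Pdgfd* was at 9.05, 8.35, and 9.27 CPM in scramble and 9.70, 10.04, and 8.05 CPM in shSrsf3 samples, which overlapped (log2 fold change 0.06, adjusted p = 0.641). The change upon knockdown was not shown to differ between the ligand conditions (interaction -0.18, edgeR adjusted p = 0.882, and -0.39, also not called, without the 3 libraries of lowest mapping rate).

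*Pdgfra*, which encodes the receptor that PDGF-AA activates, lies on chromosome 5 (75311994 to 75358876, plus strand, GRCm39). Without ligand, it was at 71.5, 69.3, and 81.0 CPM in the scramble samples and 51.2, 49.4, and 53.4 CPM in the shSrsf3 samples. In the presence of ligand, it was at 60.4, 59.0, and 60.3 CPM in scramble and 47.8, 47.6, and 44.3 CPM in shSrsf3 samples. The 4 groups formed a series without overlap, from scramble -PDGF-AA at the top to shSrsf3 +PDGF-AA at the bottom. Upon *Srsf3* knockdown, *Pdgfra* changed by -30.6% (95% interval, -36.2% to -24.6%) without ligand and by -22.2% (-28.6% to -15.3%) with ligand (log2 fold change -0.53 and -0.36, edgeR adjusted p = 5.33e-06 and 1.85e-04). Without the 3 libraries of lowest mapping rate, which leaves replicate 3 as the only scramble -PDGF-AA sample, the log2 fold change without ligand was -0.66. *Pdgfrb*, which encodes PDGFRβ, lies on chromosome 18 (61178212 to 61218133, plus strand). Without ligand, it was at 355, 344, and 379.7 CPM in the scramble samples and 356, 341, and 385 CPM in the shSrsf3 samples. With ligand, it was at 379, 342, and 362 CPM in scramble and 351, 348, and 343 CPM in shSrsf3 samples. All groups overlapped, and the intervals of the difference upon knockdown ran from -7.09% to 8.25% without and from -10.9% to 3.86% with ligand (edgeR adjusted p = 0.957 and 0.423). *Pdgfrb* is known from pericytes, and of the 8 markers of pericytes and smooth muscle, *Rgs5* was at 0.559 ± 0.0637 CPM or less in each group and *Kcnj8* and *Abcc9* at no more than 5 and 1 counts in any sample. The sum of this list was 6577 to 7625 CPM in scramble and 5653 to 6120 CPM in shSrsf3 samples, most of it *Acta2* (log2 fold change -0.31 and -0.32). The list did not move one way: of its 6 tested genes, *Cspg4*, *Myh11* (1.10 and 0.98), and *Des* (1.21 and 1.34) were called higher in both conditions, 3 were called lower without and 2 with ligand, and the median was 0.40 and 0.42.

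**Figure D3:**
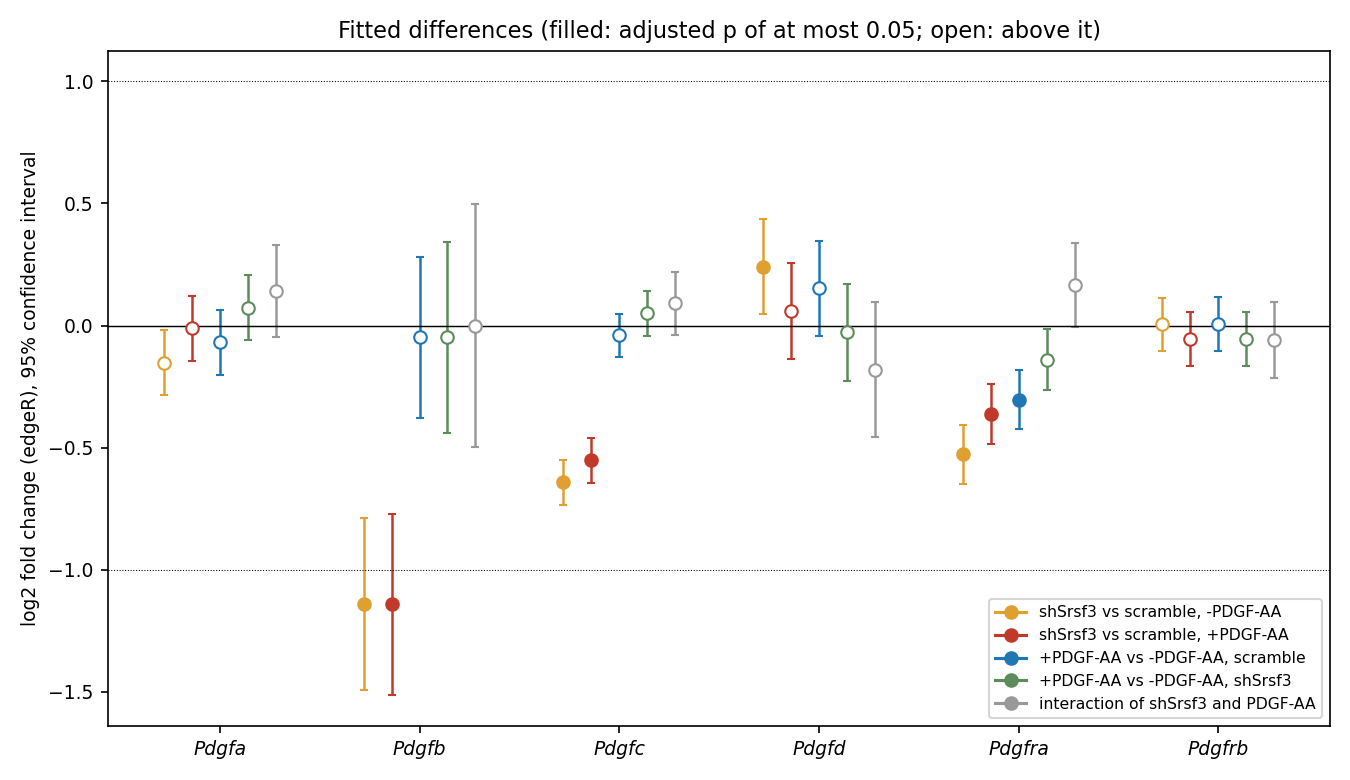
Log2 fold changes with 95% confidence intervals from edgeR for the 6 genes in 4 comparisons and their interaction, where filled points have an adjusted p of 0.05 or less. *Pdgfb* is at -1.14 in both shSrsf3 comparisons, *Pdgfrb* lies near 0 in all, and *Pdgfra* is the only gene with a filled point for PDGF-AA.

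To determine whether the ligand altered expression of its own system within 1 hr, -PDGF-AA and +PDGF-AA samples were compared in each cell line. In scramble cells, *Pdgfra* was 1.23-fold lower with ligand and was the only one of the 6 genes called (4.04% of all genes tested, and 2.04% lower). Its log2 fold change was -0.30 ± 0.06 (SE, edgeR adjusted p = 0.00764), and every +PDGF-AA sample was below every -PDGF-AA sample. With the 6 scramble samples fitted alone, it was at -0.29 and just missed the threshold (adjusted p = 0.0508). Leaving out each sample in turn gave -0.35 to -0.22, called each time (edgeR adjusted p = 0.00855 to 0.0388). Without the 3 libraries of lowest mapping rate, which leaves replicate 3, the highest, as the only scramble -PDGF-AA sample, it was at -0.43. For the ligand comparisons, the share of all genes whose samples do not overlap was not counted. In shSrsf3 cells, *Pdgfra* was lower in all +PDGF-AA samples, by -9.22%, but was not called (log2 fold change -0.14 ± 0.06, edgeR adjusted p = 0.445). There, 0 of the 6 genes were called, against 0.565% of all genes, while 1, *Pdgfra*, had an unadjusted p under 0.05, and DESeq2 and limma-voom also called 0. An interaction term tested whether the response to ligand differed between the cell lines, and 0 of the 6 genes were called (0.0133% of all genes, edgeR), with 0 at an unadjusted p under 0.05 and 0 in DESeq2 and limma-voom. For *Pdgfra*, this difference was 0.16 ± 0.08 on the log2 scale (unadjusted p = 0.0594 in edgeR's test, adjusted p = 0.874), so the smaller change in shSrsf3 cells was not shown to differ from that in scramble cells. Leaving out scramble -PDGF-AA replicate 3 gave 0.08, and leaving out the 3 libraries of lowest mapping rate gave 0.29 (adjusted p = 0.584 and 0.239 in edgeR). The ligand genes *Pdgfa*, *Pdgfc*, and *Pdgfd* changed by -0.07, -0.04, and 0.15 in scramble cells and by 0.07, 0.05, and -0.03 in shSrsf3 cells on the log2 scale, with adjusted p of 0.403 or more in edgeR's test. Without the 3 libraries of lowest mapping rate, *Pdgfd* was at 0.36 in scramble cells (edgeR adjusted p = 0.104). *Pdgfb* had wider intervals, from -23.1% to 21.6% in scramble and from -26.4% to 26.9% in shSrsf3 cells.

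The receptors were also compared within each library, where library size cancels. Per kb, *Pdgfrb* was at 5.95 ± 0.200 times *Pdgfra* in scramble -PDGF-AA samples, 8.57 ± 0.199 times in shSrsf3 -PDGF-AA samples, 7.35 ± 0.290 times in scramble +PDGF-AA samples, and 9.11 ± 0.301 times in shSrsf3 +PDGF-AA samples (SD, n = 3). No group overlapped another in this ratio. The ratio of *Pdgfra* to *Pdgfrb* was 25.2% lower in shSrsf3 than in scramble cells over both ligand conditions, and 12.8% lower with than without ligand over both cell lines. In a two-sided exact permutation test within strata, p was 0.005 for both, the smallest that the 400 arrangements allow. Groups without overlap that shift the same way in both strata always give this p, so it adds nothing to that separation. The ligand value pools a shift of *Pdgfrb* over *Pdgfra* from 5.95 to 7.35 in scramble cells with 8.57 to 9.11 in shSrsf3 cells. For PDGF-AA in shSrsf3 cells, *Pdgfra* was not called. Within 1 cell line, 3 samples against 3 cannot give a p below 0.1 in this test. The *Pdgfra* share of receptor RNA per length went from 14.4 ± 0.422% (scramble -PDGF-AA) to 9.90 ± 0.290% (shSrsf3 +PDGF-AA).

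**Figure D4:**
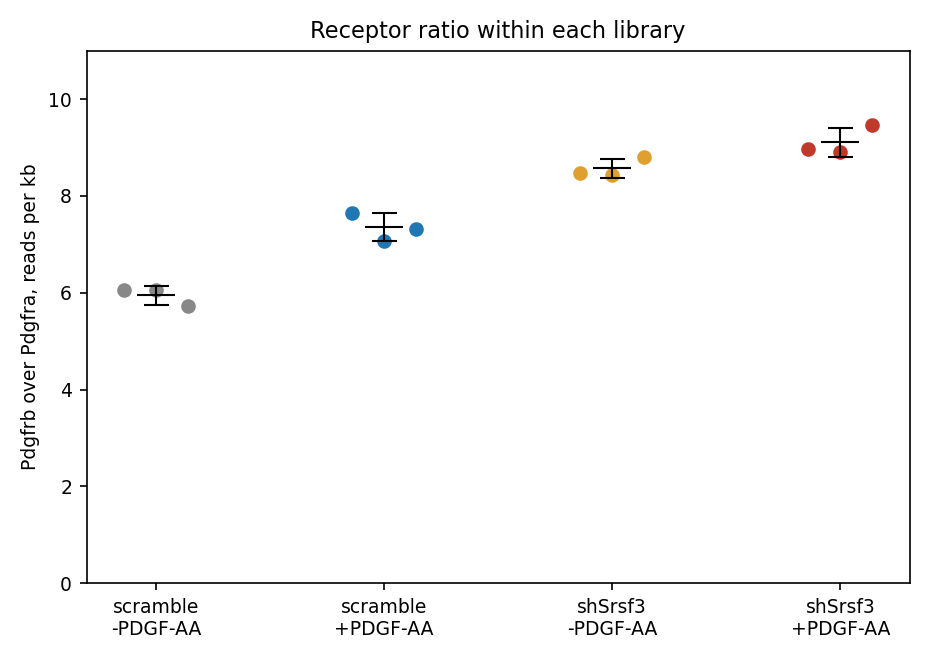
Reads of *Pdgfrb* over *Pdgfra*, each per kb of canonical transcript, within each library (points), with the group mean and SD (bars, n = 3) on a linear axis from 0. The ratio is lowest in scramble -PDGF-AA samples, at 5.95 ± 0.200, and highest in shSrsf3 +PDGF-AA samples, at 9.11 ± 0.301.

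Genes that act on the PDGF system were described by list, where counts of higher and lower genes are of those called DE. Over all genes tested, 22.2% were called higher and 23.7% lower without ligand, and 20.3% and 20.7% with ligand. No list was tested against these shares. Of 8 genes for ligand processing, 6 were tested, and without ligand 2 were higher and 3 lower in shSrsf3 cells, with 2 and 2 in the presence of ligand. The median log2 fold change was -0.12 and -0.01, against -0.02 and -0.01 over all genes. *Pcsk6*, a proprotein convertase, fell from 78.4 ± 0.828 to 34.4 ± 1.43 CPM without ligand and from 83.4 ± 2.94 to 35.5 ± 1.87 CPM with ligand (log2 fold change -1.19 and -1.23). *Furin* was at 107 ± 2.30 CPM in scramble and 107 ± 3.83 CPM in shSrsf3 -PDGF-AA samples. *Plau*, the urokinase that activates PDGF-D, rose from 135 ± 3.78 to 212 ± 13.1 CPM (0.65) without ligand and from 187 ± 17.8 to 218 ± 7.49 CPM (0.22) with ligand, and it also rose with PDGF-AA in scramble cells (0.47, edgeR adjusted p = 8.67e-04). *Plat*, which activates PDGF-C, was lower in shSrsf3 cells without ligand (-0.23, edgeR adjusted p = 0.00146) and at -0.06 with ligand (adjusted p = 0.320), and *Pcsk7* was higher in both conditions (0.27 and 0.24). *Pcsk5* was lower (-1.18 and -2.52) on at most 34 counts per sample, and plasminogen (*Plg*) had none in any sample.

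Of 4 genes whose products bind PDGF ligands or receptors outside the cell, 1 was called higher and 2 lower in both conditions. Their median log2 fold change was 0.02 and -0.08. The shares over all genes were 22.2% higher and 23.7% lower without ligand, and 20.3% and 20.7% with ligand. *Cspg4*, the NG2 proteoglycan that binds PDGF-AA, rose from 75.7 ± 5.21 to 164 ± 21.4 CPM without ligand and from 85.4 ± 4.97 to 177 ± 10.3 CPM with ligand (1.11 and 1.05). *Sparc*, a matrix protein that binds PDGF-B, fell by 0.48 and 0.43 on the log2 scale, and the coreceptor *Nrp1* fell by 0.18 and 0.23. Of the 22 adaptors and effectors, 6 were called higher and 7 lower without ligand and 5 and 7 with ligand, none by 2-fold. Their median was -0.03 and -0.06. *Stat5a* fell from 12.3 ± 0.749 to 7.41 ± 0.105 CPM without ligand (-0.73) and by 0.55 with ligand, although reads can be split between it and its close copy *Stat5b*. *Gab1*, a docking protein, fell by 0.51 and 0.39, and *Stat3* fell by 0.31 and 0.46. The PI3K regulatory subunits did not move one way. Of them, *Pik3r3* fell by 0.34 and 0.23, while *Pik3r1* and *Pik3r2*, chosen after their values were seen, were higher (0.22 and 0.29, 0.32 and 0.31).

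Of 10 negative regulators, 2 were called higher and 2 lower in each condition, with a median of 0.03 and 0.02. The shares over all genes were 22.2% higher and 23.7% lower without ligand, and 20.3% and 20.7% with ligand. *Acp1*, a phosphatase, fell by 0.36 and 0.50, the ubiquitin ligase *Cblb* fell by 0.33 and 0.30, and the adaptor *Sh2b3* rose by 0.29 and 0.19. Upon PDGF-AA in scramble cells, *Sh2b3* also rose (0.24, edgeR adjusted p = 0.00267). Of the 12 genes of the VEGF family and related receptors, 10 were tested. In each condition, 3 were called higher and 3 lower, with a median of -0.05 and -0.07. *Flt1* rose from 106 ± 7.06 to 145 ± 10.0 CPM without ligand (0.45) and by 0.39 with ligand, and *Pdgfrl*, a PDGF receptor-like protein, fell by 0.29 and 0.41. *Kdr* was higher (1.24 and 0.91) and *Flt4* lower (-1.09 and -1.37), both under 2 CPM in every group on average, and *Kit* and *Flt3* had at most 1 count in any sample. *Vegfa* rose with PDGF-AA in scramble (0.44, edgeR adjusted p = 4.23e-04) and shSrsf3 cells (0.39, edgeR adjusted p = 0.00410).

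**Figure D5:**
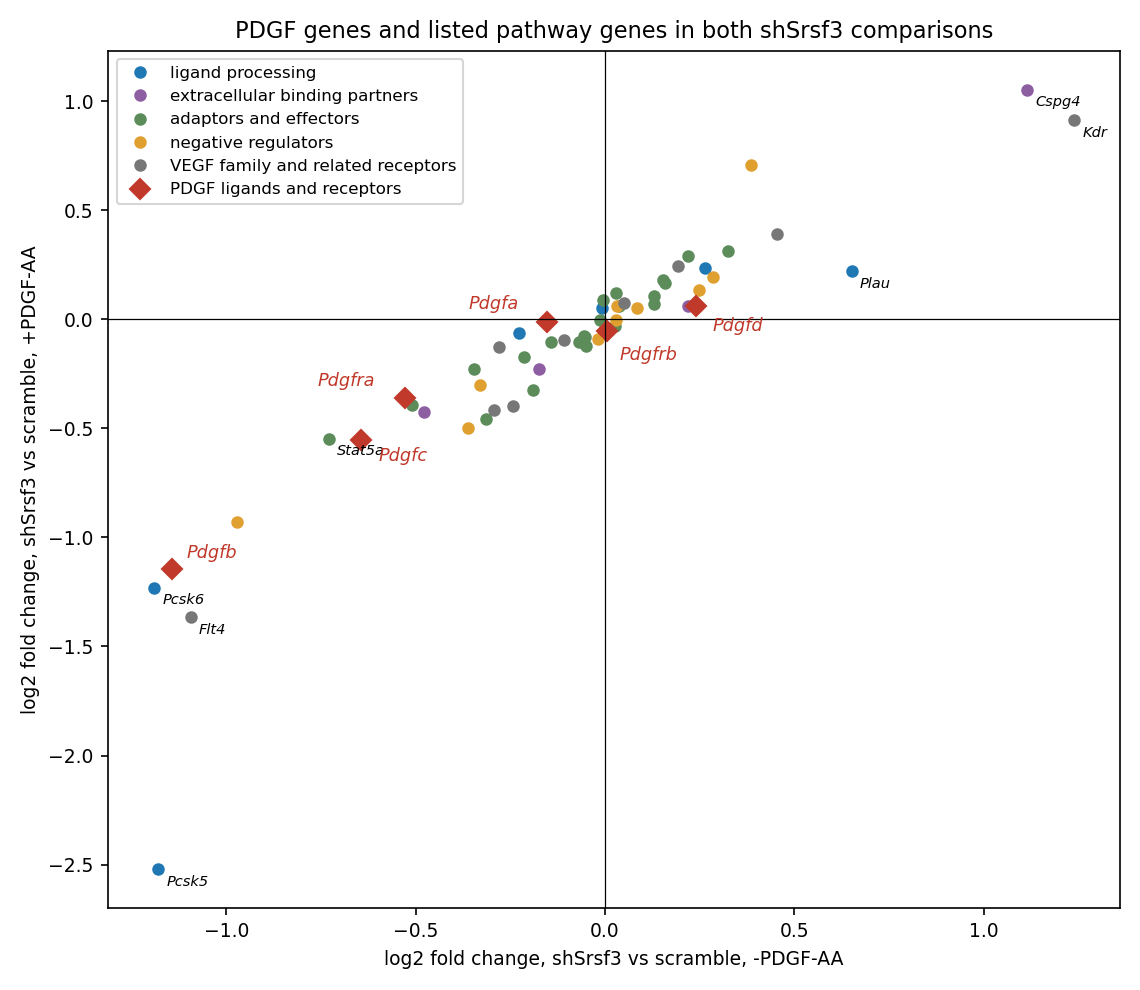
Log2 fold changes of shSrsf3 against scramble cells without (x axis) and with PDGF-AA (y axis), which share no samples, for the 6 PDGF genes (diamonds) and the listed pathway genes (circles), with names for listed genes chosen by rule and past 0.6 in either comparison. *Pdgfb* lies near *Pcsk6* at the lower left, and *Cspg4* lies at the upper right, at 1.11 and 1.05.

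The genes whose log2 CPM most resembled those of *Pdgfra* over the 12 samples, among 10186 genes, were *Zfp292* (Pearson r = 0.99), *Zfp606* (0.98), and *Gm7072* (0.97). *Zfp292* was at 30.4 ± 1.65, 23.5 ± 1.60, 26.3 ± 0.431, and 22.2 ± 0.777 CPM in scramble -PDGF-AA, shSrsf3 -PDGF-AA, scramble +PDGF-AA, and shSrsf3 +PDGF-AA samples. For *Pdgfrb*, the highest values were those of *Hip1* (0.86), *Tbc1d14* (0.84), and *Cmklr1* (0.83), which like *Pdgfrb* differed little between groups. These correlations describe samples that share groups and library preparation and have no test.

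Protein-coding genes within 200 kb of each member were examined in the annotation. Counts of higher and lower neighbours are of genes called DE in shSrsf3 cells. The shares over all genes were 22.2% higher and 23.7% lower without ligand, and 20.3% and 20.7% with ligand. *Chic2*, 107 kb from *Pdgfra*, was the only tested neighbour of that gene and changed by -0.19 without ligand (edgeR adjusted p = 0.0109) and -0.01 with ligand (adjusted p = 0.892), while *Gsx2* did not pass the filter for low counts. *Glrb*, 60.8 kb from *Pdgfc*, was lower in both conditions (-0.27 and -0.21, edgeR adjusted p = 0.00296 and 0.0157). Of the 9 neighbours of *Pdgfb*, 4 were lower and 2 higher without ligand and 4 lower and 1 higher with ligand. The nearest, *Cbx7* at 24.7 kb, was at -0.59 and -0.44, and *Apobec3*, at 79.8 kb, was at -0.86 and -0.80. *Prkar1b*, 18.6 kb from *Pdgfa*, was higher (0.57 and 0.50), although *Pdgfa* was not called. Of the 7 tested neighbours of *Pdgfrb*, 3 were higher without and 2 with ligand, and 0 were lower, although *Slc6a7* was at -0.53 and -0.82 (adjusted p = 0.186 and 0.0621 in edgeR). *Pdgfd* had no neighbour in this window, and *Ddi1*, which lies within it on the opposite strand, had at most 1 count.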

How the data were processed

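The authors trimmed reads with BBDuk, quantified transcripts with Salmon 1.4.0 against GENCODE M26 on GRCm39, and deposited expected counts, estimated read pairs per gene symbol summed with tximport, whose count scaling is not given in the sources used here. Samples were grouped by their labels. The study's methods call the 3 replicates of each treatment independent biological replicates, while the labels do not say from which cultures they came. The p-values measure the spread between these samples, with 1 cell line per shRNA. The 6 members and all gene lists were chosen with earlier results of these data known.

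Expected counts were rounded, filtered with filterByExpr (minimum count 10), and scaled with TMM (trimmed mean of M-values) factors. The quasi-likelihood test of edgeR 4.0.16 was applied in R 4.3.3 to 15037 genes, with a mean per group and all 12 samples, and p-values were adjusted by the Benjamini-Hochberg method over these genes. The script was tested on simulated data. Total counts ranged from 30958870 to 76123207. DESeq2 1.42.0, limma 3.58.1, other scalings and filters, and left-out samples were alternatives. Lengths and positions came from GENCODE M39 on GRCm39, and at most 1.50% of any member's 31-base sequences occur in another gene. Libraries were stranded per the study's methods, but whether Salmon used the strand is not given in the sources used here.

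Named were the 6 members, *Srsf3*, up to 4 genes per list with the largest change among those called and without overlap in both shSrsf3 comparisons, neighbours within 200 kb, the 3 genes (mean of at least 5 CPM) most like each receptor, and 2 immediate early genes. Other listed genes (*Furin*, *Plat*, *Plg*, *Pik3r1*, *Pik3r2*, *Vegfa*, *Kit*, *Flt3*, and *Fos*) and markers were added after their values were seen.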

Additional observations from a re-analysis of the deposited data

How the results depend on the processing

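Of 798 recomputed values, 751 stayed the same. For a count of members called, that means equal or close to the main count. For a fold change, it means the same direction and the same side of the threshold. The changes of *Pdgfb*, *Pdgfc*, and *Pdgfra* between shSrsf3 and scramble samples kept both in each of 22 alternatives per comparison. With a 2-fold minimum, 1, 1, and 0 of the 6 genes were called without ligand, with ligand, and for PDGF-AA in scramble cells, and the last count was also 0 when the 6 scramble samples were fitted alone, where *Pdgfra* was at -0.29 (adjusted p = 0.0508). Values near 0 changed sign. With upper quartile factors, *Pdgfrb* was at -0.00199 upon knockdown without ligand and -0.00282 for PDGF-AA in scramble cells. Without the 3 libraries of lowest mapping rate, where the lone scramble -PDGF-AA sample is assumed to vary like the others, these were -0.0786 and -0.0360, *Pdgfa* was at 0.0295 upon knockdown with ligand and 0.0360 for PDGF-AA in scramble cells, and the *Pdgfb* interaction was 0.0317. At equal depth, *Pdgfa* upon knockdown with ligand was 0.00331. Leaving out each sample in turn gave, for *Pdgfrb*, -0.0409 to 0.0571 upon knockdown without ligand and -0.0307 to 0.0576 for PDGF-AA in scramble cells. With ligand, knockdown values were -0.0450 to 0.0328 for *Pdgfa* and -0.000378 to 0.152 for *Pdgfd*. For PDGF-AA, *Pdgfb* was at -0.116 to 0.0632 in scramble and -0.300 to 0.131 in shSrsf3 cells, *Pdgfd* at -0.0868 to 0.0628 in shSrsf3 cells, and the *Pdgfb* interaction at -0.256 to 0.176. The number of members called was then 3 to 4 without ligand. The cause of these shifts was not tested.

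Same-numbered samples correlated by -0.14 to 0.20 in their deviations from group means, so the numbers were not taken as pairs. With the replicate number as a block, 6982 genes were called upon knockdown without ligand and 6223 with it, against 6899 and 6169, and *Pdgfd* lost its call (0.24, adjusted p = 0.0518), the only member that did. Among all genes, calls for PDGF-AA depended on the setting. In scramble cells, 608 genes were called, against 1289 with no filter on low counts, 247 with the compared groups alone, 1472 without scramble -PDGF-AA replicate 3, 340 without its replicate 2, and 334 and 243 without scramble +PDGF-AA replicates 1 and 3. In shSrsf3 cells, 85 were called, against 374 with no filter, 210 in DESeq2, 201 with the compared groups alone, 231 without the 3 libraries of lowest mapping rate, 168 without scramble -PDGF-AA replicate 3, 23 and 26 without shSrsf3 -PDGF-AA replicates 1 and 2, and 46 without shSrsf3 +PDGF-AA replicate 2. For the interaction, 2 were called, against 218 with no filter, 26 in DESeq2, 16 without the 3 libraries of lowest mapping rate, 6 without shSrsf3 +PDGF-AA replicate 3, and 1 with the block, at equal depth, or without any of 8 other samples in turn. At 94 to 138 read pairs of *Pdgfb* in shSrsf3 +PDGF-AA samples, small changes of this gene were not detectable.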
